A study of Homo sapiens with 4 samples.

Results

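A set of 48 genes that make up epithelial cell-cell junctions, their keratin cytoskeleton and the regulators and surface proteins of epithelial cells was followed in HGC-27 cells after knockdown of the deubiquitinase USP47. The genes were chosen by symbol, from what they are known to encode, but with earlier results of these data known. All 48 were found among the 63568 gene identifiers of the count tables. Of these, 29 had at least 10 counts in both control libraries and are called expressed here. The other 19 were below 10 counts in at least 1 control library and are called silent, a term for this depth and not for the absence of transcripts.

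HGC-27 is a long-established cell line from a gastric carcinoma. All cells carried a lentivirus, which delivered either a scrambled control shRNA (2 libraries) or shRNA against USP47 (2 libraries), and no other agent is given by the labels of these libraries. The submitters call the libraries biological duplicates, but no source used here says whether they came from separate cultures or whether both USP47 shRNA libraries carry the same shRNA sequence, so a p-value measures only the spread between these libraries. Poly(A) RNA was sequenced, and the libraries held 15649899 to 20140273 counts on genes. The study asked which pathways depend on USP47, epithelial-mesenchymal transition (EMT) among them, and the comparison here asks which epithelial genes differ between cells with and without the knockdown.

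Epithelial sheets are held together by 3 kinds of contact. Adherens junctions use classical cadherins such as E-cadherin, tight junctions seal the space between cells with claudins and occludin, and desmosomes anchor keratin filaments through desmogleins, desmocollins and plaque proteins such as desmoplakin. In EMT the transcription factors of the SNAI, ZEB and TWIST families bind E-box sequences at genes of this kind and lower their transcription, and carcinoma lines that have gone through such a change often carry little E-cadherin, EPCAM or simple epithelial keratin.

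USP47 (chromosome 11, 11862970 to 11983434 of GRCh37, the build of all gene positions here except the promoters) had 1357 and 1297 counts with control shRNA against 749 and 309 with USP47 shRNA. The knockdown libraries kept 49.3% and 29.5% of the mean control level, after scaling for library size. This came to a log2 fold change of -1.34, with a standard error (SE) of 0.21 and an adjusted p of 0.00362 by edgeR's quasi-likelihood test. DKK3 overlaps USP47 on the other strand. Overlaps given here are of whole gene spans, introns included. Whether the counting used the strand is not given in the sources used here, so reads of overlapping genes may have been mixed. Knockdown was thus partial and unequal between the libraries.

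Of the markers that define a simple epithelium, few counts were assigned to the genes themselves. KRT18 and KRT19, keratins of simple epithelia, had 0 or 1 count in every library, and their partner KRT8 had 10 to 19. The named pseudogenes of KRT8 held 227 to 352 counts and those of KRT18 held 240 to 433, so the low counts of these 2 keratins are uncertain. CDH1, which encodes E-cadherin, had 12 and 13 counts with control shRNA, and EPCAM, an epithelial adhesion molecule, had 11 and 12. Of 7 gastric epithelial markers, MUC6 (71 to 146 counts) and CLDN18 (43 to 66 counts) were tested and neither was called, and the others had at most 4 counts. The mesenchymal markers VIM and SPARC were abundant, with 7201 to 9236 and 1630 to 2107 counts, while CDH2 and CDH11 had at most 10. The summed level of the 6 mesenchymal markers was 648 to 657 CPM (counts scaled to a common library size, after TMM normalization) in the control libraries and 485 to 656 CPM in the knockdown libraries, and that of the gastric markers was 9.74 to 11.2 and 8.43 to 10.3 CPM. The immune markers CD14, PTPRC, CD3E and LYZ had at most 12 counts in any library. The part of these markers in the results was not tested. In bulk RNA, fewer cells of a type and less RNA per cell cannot be told apart.

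To compare genes with each other, levels were divided by gene length (CPM per kilobase). In control cells the highest levels were those of TJP1, a tight junction scaffold (18.5 CPM per kilobase), the desmosomal cadherin DSG2 (16.0) and the claudin CLDN15 (11.3). MUC1, a transmembrane mucin, stood at 6.26 CPM per kilobase, the polarity scaffold PATJ at 6.25, DSC2 at 4.65, DSP at 4.50, CLDN12 at 3.58, CGN at 2.94 and PARD6B at 2.51. CDH1, at 0.112 CPM per kilobase, ranked 30 among the 48. EPCAM reached 0.252 and KRT8 0.156 CPM per kilobase. HGC-27 cells thus held transcripts for junctional scaffolds and for desmosomal cadherins, but few for E-cadherin. The 29 expressed genes had a median control level of 0.962 CPM per kilobase, against 3.89 over the 20764 genes of the files that were expressed by the same rule and tested.

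**Figure D1:**
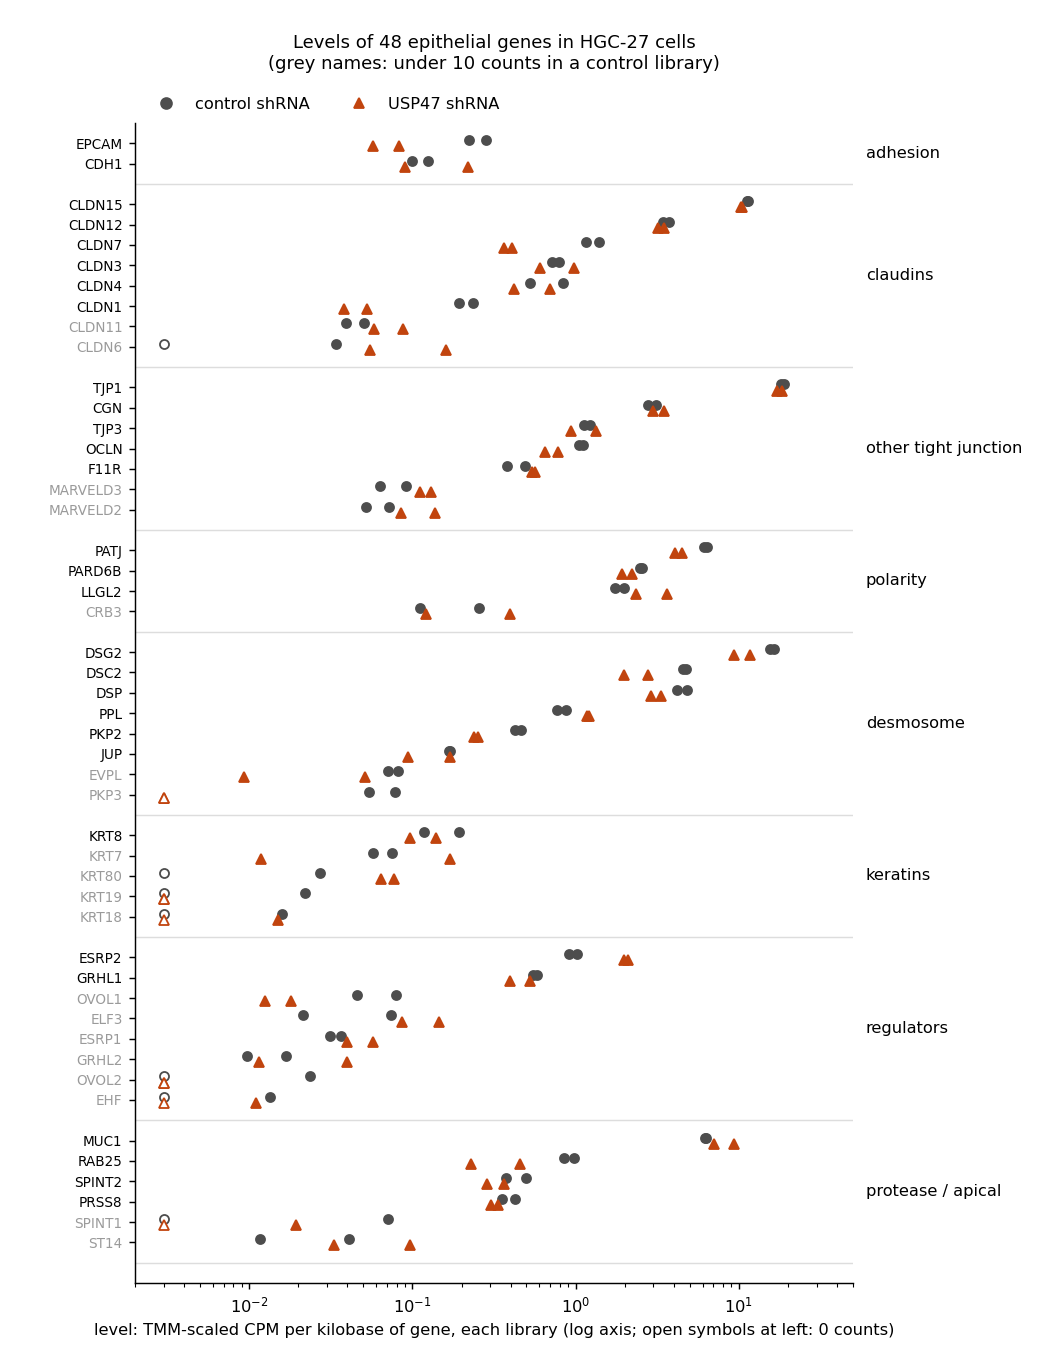
Levels of the 48 epithelial genes in each library, as TMM-scaled CPM per kilobase of gene on a log axis, with 1 row per gene grouped by role (circles, control shRNA, n = 2; triangles, USP47 shRNA, n = 2; open symbols at the left edge, 0 counts). TJP1 and DSG2 lie at the right end, at 18.5 and 16.0 CPM per kilobase in control cells, and KRT18, KRT19, OVOL2 and EHF at the left end, each with 0 counts in at least 1 library of each group.

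Among the 29 expressed genes, 9 were lower with USP47 shRNA (EPCAM, CLDN1, CLDN7, PATJ, DSP, DSG2, DSC2, PKP2 and RAB25) and 2 were higher (LLGL2 and ESRP2) by edgeR's quasi-likelihood test, at a threshold of 0.05 on p adjusted over the 21932 genes tested. The share lower, 31.0% of the expressed genes, stands beside 10.1% of the 20764 expressed genes of the files and 9.56% of all genes tested. The share higher was 6.90%, beside 6.29% and 6.52%. The median log2 fold change of the expressed set was -0.30 (quartiles -0.60 and 0.12), beside -0.028 over all expressed genes, and 21 of the 29 values were below 0. In 20 of the 29 genes the groups did not overlap, 15 with both knockdown libraries below both control libraries and 5 above, while 61.9% of all expressed genes had no overlap. These counts describe a set picked with earlier results of these data known.

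Several limits belong to these counts. The rule for expressed genes reads the control libraries alone, which at low counts favours genes that are lower with USP47 shRNA. It left out the tested MARVELD3 and ELF3, with log2 fold changes of 0.64 and 1.27. The share lower, the median and the count of values below 0 carry this tilt. The background follows the same rule, and the size of the tilt in either was not tested. EPCAM and CLDN1 passed the filter on low counts through the control libraries alone, so they could be tested only because they were higher there. Without them 27 expressed genes remain, with 7 lower and 2 higher. Background shares without such genes were not computed, so none can be set beside these counts. The number called moved with single libraries, from 11 to 4 without control replicate 1 and to 4 without control replicate 2, against 11 without USP47 shRNA replicate 1 and 14 without USP47 shRNA replicate 2, where the lone library of a group is assumed to vary like the other group's. CLDN7, DSC2 and ESRP2 kept their calls in each of these 4 fits.

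**Figure D2:**
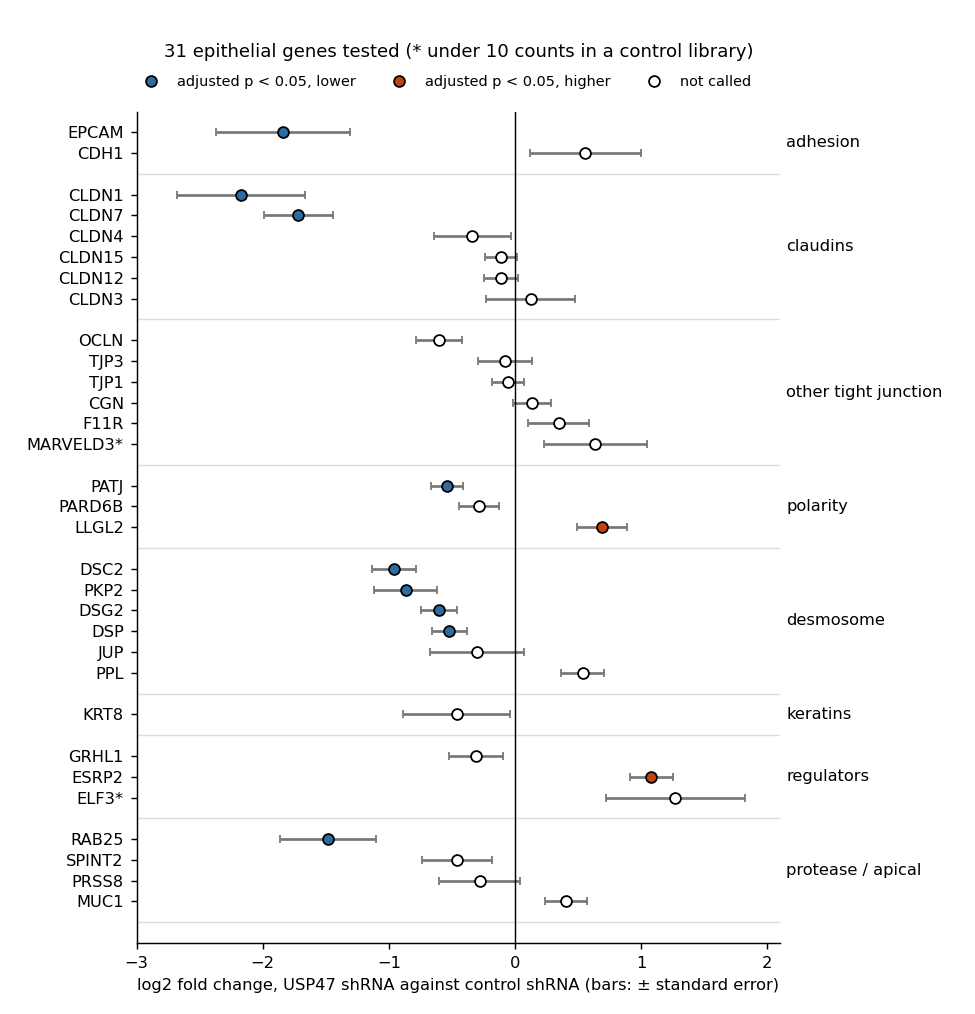
Log2 fold change of USP47 shRNA against control shRNA for the 31 epithelial genes that could be tested, grouped by role, with bars of ± 1 standard error from edgeR (n = 2 libraries per group). The 9 genes called lower (blue) run from -2.17 (CLDN1) to -0.52 (DSP), the 2 called higher (orange) are LLGL2 at 0.69 and ESRP2 at 1.08, and open circles are genes not called.

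Because EMT repressors bind E-boxes, the E-box word CAGGTG and its reverse complement CACCTG, which together cover both strands, were looked up in RefSeq promoters of GRCh38.p14 (250 bases before to 50 after the annotated start). A promoter was at hand for 26 of the 48 genes. The word was present in 12 of these 26 (46.2%), and 6 of them (23.1%) held it more than once. Over all 35116 promoters of the reference 20.6% held it and 3.49% held it more than once. The 26 were taken as 1 promoter per gene, a limit not set for the 35116, so these shares may not compare like sets. Of the 7 genes called lower with a promoter, PATJ, DSP, DSG2, DSC2 and RAB25 held the word, and CLDN1 and CLDN7 did not. No promoter was at hand for CDH1, nor for EPCAM and PKP2, which were also called lower. The promoters of ESRP2 and LLGL2 were missing too, so genes called lower could not be compared with genes called higher. The 12 expressed genes that were not called held it in 4 promoters (CLDN3, OCLN, TJP1 and MUC1), and the 7 silent genes in 3, including 5 copies in that of the polarity gene CRB3. A match is a description of letters, not a bound site. Whether binding at these words had a part in the differences was not tested. The 250 bases before the start of the 5 lower genes that hold the word are shown because 4 of these genes build desmosomes or the apical polarity complex, with the E-box words in capitals and each sequence written 5′ to 3′ along its gene.
PATJ, chr1:61742230-61742479, plus strand: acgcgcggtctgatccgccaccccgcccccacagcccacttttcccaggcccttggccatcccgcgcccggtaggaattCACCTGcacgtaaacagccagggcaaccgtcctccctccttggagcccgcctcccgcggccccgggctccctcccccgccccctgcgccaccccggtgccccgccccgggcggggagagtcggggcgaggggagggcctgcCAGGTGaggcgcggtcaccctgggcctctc
DSP, chr6:7541421-7541670, plus strand: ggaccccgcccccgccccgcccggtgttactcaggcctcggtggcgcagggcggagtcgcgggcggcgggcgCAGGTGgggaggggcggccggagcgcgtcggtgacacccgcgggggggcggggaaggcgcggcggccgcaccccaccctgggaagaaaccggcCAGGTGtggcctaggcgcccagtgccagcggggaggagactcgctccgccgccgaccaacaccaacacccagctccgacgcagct
DSG2, chr18:31497927-31498176, plus strand: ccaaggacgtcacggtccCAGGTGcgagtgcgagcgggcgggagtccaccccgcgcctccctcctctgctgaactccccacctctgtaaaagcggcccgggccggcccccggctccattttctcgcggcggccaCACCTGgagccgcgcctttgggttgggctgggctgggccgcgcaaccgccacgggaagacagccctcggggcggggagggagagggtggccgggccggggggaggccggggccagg
DSC2, chr18:31102422-31102671, minus strand: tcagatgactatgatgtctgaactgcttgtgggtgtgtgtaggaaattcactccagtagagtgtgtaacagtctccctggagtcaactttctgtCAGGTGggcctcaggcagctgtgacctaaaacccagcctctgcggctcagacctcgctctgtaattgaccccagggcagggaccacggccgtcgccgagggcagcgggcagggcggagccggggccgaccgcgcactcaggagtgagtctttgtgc
RAB25, chr1:156060910-156061159, plus strand: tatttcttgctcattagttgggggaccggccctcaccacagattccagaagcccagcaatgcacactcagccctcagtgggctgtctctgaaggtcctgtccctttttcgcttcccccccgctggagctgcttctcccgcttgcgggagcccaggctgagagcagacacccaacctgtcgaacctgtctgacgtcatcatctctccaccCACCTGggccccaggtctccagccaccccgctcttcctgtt
Counted from the start, the first base of the word lay at -171 and -30 in PATJ, at -178 and -85 in DSP, at -232 and -116 in DSG2, at -156 in DSC2 and at -41 in RAB25. PATJ held 1 more copy after the start, at 9, and RAB25 held 1 at 37, outside the bases shown. The copies of the desmosomal genes all lay upstream of the start, with no offset in common.

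**Figure D3:**
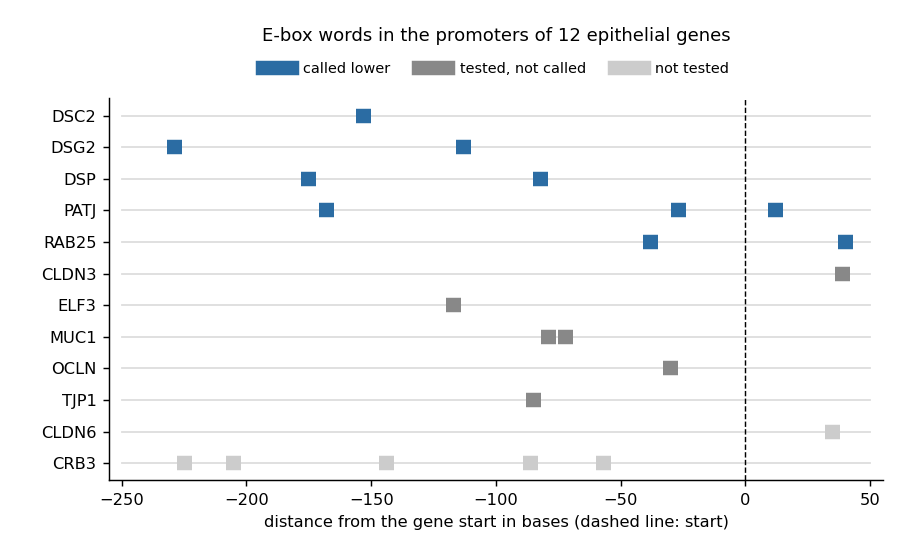
Positions of the E-box word in the 12 promoters that hold it, as distance in bases from the annotated start (dashed line), with 1 row per gene and 1 square per word. Blue rows are the 5 genes called lower, dark grey rows genes tested and not called, and light grey rows genes not tested; CRB3 has 5 words and MUC1 has 2 close to each other.

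Of 8 genes for desmosomes and the plaque of the cornified envelope, 6 were expressed and 4 of these were lower, with none higher. Over all expressed genes 10.1% were lower and 6.29% higher, and the desmosomal genes are too few to be read against these shares. DSC2, a desmosomal cadherin (chromosome 18, 28638806 to 28682485), had 405 and 487 counts with control shRNA against 303 and 148 with USP47 shRNA, or 23.9, 24.8, 14.6 and 10.3 CPM. Both knockdown libraries were below both control libraries, at 59.8% and 42.3% of the control mean. The fall was 1.94-fold (log2 fold change -0.96, SE 0.17, adjusted p = 0.00656), and it was called under each alternative apart from the test against a minimum log2 fold change of 1. DSCAS overlaps DSC2 on the other strand.

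DSG2, the partner cadherin of DSC2 (chromosome 18, 29078140 to 29128971), had 1727 and 1891 counts with control shRNA against 1501 and 835 with USP47 shRNA, or 102, 96.4, 72.2 and 58.2 CPM. The groups did not overlap, and replicate 2 was the lower knockdown library for both cadherins. The log2 fold change of DSG2 was -0.60 (SE 0.14, adjusted p = 0.0180), a 1.52-fold fall. DSP encodes desmoplakin, which ties the plaque to keratin filaments (chromosome 6, 7541571 to 7586947). It had 819 and 834 counts with control shRNA against 704 and 421 with USP47 shRNA, or 48.3, 42.5, 33.9 and 29.3 CPM, and its log2 fold change was -0.52 (SE 0.14, adjusted p = 0.0303). DSG2 and DSP are overlapped by the antisense RNAs DSG2-AS1 and DSP-AS1. The DSG2 call was lost without control replicate 1 (adjusted p = 0.213) and without control replicate 2 (adjusted p = 0.0905), and so was that of DSP (0.392 and 0.114), which also had an adjusted p of 0.0534 with library size alone.

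PKP2, an armadillo protein of the plaque (chromosome 12, 32943679 to 33049732), was less abundant, with 44 and 55 counts with control shRNA against 30 and 22 with USP47 shRNA, or 2.59, 2.80, 1.44 and 1.53 CPM. Both knockdown libraries were near one another and below both control libraries. The log2 fold change was -0.86 (SE 0.25, adjusted p = 0.0409). This call was the least stable of the desmosomal genes, and the adjusted p was 0.169 without control replicate 1, 0.253 without control replicate 2, 0.0601 without USP47 shRNA replicate 1 and 0.266 in the DESeq2 Wald test.

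The other desmosomal genes did not pass the test. PPL, periplakin of the cornified envelope, had 114 and 116 counts with control shRNA against 188 and 133 with USP47 shRNA, or 6.72, 5.91, 9.04 and 9.27 CPM. Both knockdown libraries were above both control libraries, and the log2 fold change was 0.54 (SE 0.17, adjusted p = 0.0545), just short of a call that it passed without USP47 shRNA replicate 1 (adjusted p = 0.0144) and without USP47 shRNA replicate 2 (0.0182). JUP, plakoglobin, had 17, 20, 21 and 8 counts in the order control 1, control 2, USP47 shRNA 1 and USP47 shRNA 2, and its groups overlapped (log2 fold change -0.30, adjusted p = 0.610). The silent PKP3, another plaque protein, had 5 and 4 counts with control shRNA and 0 and 0 with USP47 shRNA, and was not tested. Its control mean was 1.41-fold above a floor of 3 counts per knockdown library. The control counts are themselves near that floor, so no size can be given for a difference. EVPL, envoplakin, had 9 and 12 counts with control shRNA against 8 and 1 with USP47 shRNA and did not pass the filter on low counts.

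DSC2 and DSG2 sit in a cluster of desmosomal cadherin genes on chromosome 18, between 28569331 and 29128971. After their values were seen, their surroundings were looked up. Within 5 Mb of the cluster, 32 other expressed genes had a median log2 fold change of 0.081, with 2 lower and 1 higher, and the 311 expressed genes of chromosome 18 had a median of -0.0095, with 30 lower and 15 higher. DSC1, next to DSC2 and among the further junction genes described later, had 120 and 135 counts with control shRNA against 113 and 51 with USP47 shRNA (log2 fold change -0.61, adjusted p = 0.0812).

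Claudins, the sealing and pore-forming proteins of tight junctions, split into those that were lower and those that did not pass the test. Of 8 claudins 6 were expressed, 2 were lower and none was higher. Over all expressed genes 10.1% were lower and 6.29% higher, and the claudins are too few to be read against these shares. CLDN7 (chromosome 17, 7163222 to 7167302), with 49 and 68 counts with control shRNA against 21 and 13 with USP47 shRNA, came to 2.89, 3.47, 1.01 and 0.906 CPM. Both knockdown libraries held less than either control library, at 31.8% and 28.5% of the control mean. The fall was 3.29-fold (log2 fold change -1.72, SE 0.27, adjusted p = 0.00362), and over the 4 fits that left out 1 library it lay between -1.84 and -1.58. ELP5 on the other strand and an unnamed protein-coding gene on the same strand overlap CLDN7, so some of these reads may not be assigned with certainty.

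CLDN1 (chromosome 3, 190023496 to 190040235) had 12 and 17 counts with control shRNA against 4 and 2 with USP47 shRNA, or 0.707, 0.867, 0.192 and 0.139 CPM. CLDN1 passed the filter on low counts through the control libraries alone. Its groups did not overlap. Its log2 fold change, -2.17, was the most negative of the members tested but had a standard error of 0.51 (adjusted p = 0.0181). Without control replicate 2 the adjusted p was 0.120. The most abundant claudins did not pass the test. CLDN15 had 548 and 644 counts with control shRNA against 630 and 431 with USP47 shRNA (log2 fold change -0.11, adjusted p = 0.583), and CLDN12 had 428, 455, 447 and 336 in the same order (-0.11, adjusted p = 0.616). CLDN12 shares its span with GTPBP10 and CDK14 on the same strand.

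CLDN4 varied more between the control libraries, 42 and 77 counts, than its groups differed, with 41 and 47 counts in the knockdown libraries (log2 fold change -0.34, adjusted p = 0.473). Without USP47 shRNA replicate 2 its log2 fold change was -0.71 with an adjusted p of 0.0444. CLDN3 had 17 and 18 counts against 26 and 11, and its groups overlapped (log2 fold change 0.12, adjusted p = 0.842). The silent claudins were CLDN6, with 1, 0, 2 and 4 counts in the order given before, and CLDN11, with 4, 6, 11 and 5.

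None of the other 7 tight junction genes was called, and 5 of them were expressed. They are too few to be read against the 10.1% lower and 6.29% higher over all expressed genes. OCLN, which encodes occludin, a transmembrane tight junction protein (chromosome 5, 68788119 to 68853931), had 120 and 147 counts with control shRNA against 91 and 76 with USP47 shRNA, or 7.07, 7.49, 4.38 and 5.30 CPM. Its groups did not overlap, and its log2 fold change was -0.60 (SE 0.19) with an adjusted p of 0.0503. OCLN passed the threshold with library size alone (adjusted p = 0.0472) and without USP47 shRNA replicate 2 (0.00266).

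TJP1, the scaffold ZO-1, was the most abundant gene of the set per length, with 3619 and 4045 counts with control shRNA against 4333 and 2811 with USP47 shRNA. At 213, 206, 208 and 196 CPM its groups overlapped, and its log2 fold change was -0.05 (SE 0.13, adjusted p = 0.809). The other scaffolds TJP3 and CGN, cingulin, had log2 fold changes of -0.08 and 0.13 (adjusted p = 0.835 and 0.568). F11R, the junctional adhesion molecule JAM-A, had 42 and 38 counts against 57 and 41 (log2 fold change 0.35, adjusted p = 0.348). Of the MARVEL-domain proteins, MARVELD2 had 6, 5, 14 and 6 counts and MARVELD3 had 10, 8, 15 and 12, the last with a log2 fold change of 0.64 (adjusted p = 0.311).

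EPCAM and CDH1, the adhesion genes, both had few counts, and only EPCAM was called. EPCAM (chromosome 2, 47572297 to 47614740) had 12 and 11 counts with control shRNA and 3 in each knockdown library, or 0.707, 0.561, 0.144 and 0.209 CPM. Like CLDN1, EPCAM passed the filter on low counts through the control libraries alone. Both knockdown libraries were lower, and the log2 fold change was -1.84 (SE 0.53, adjusted p = 0.0418). This call was lost without control replicate 1 (adjusted p = 0.232), without control replicate 2 (0.121), without USP47 shRNA replicate 1 (0.146), with library size alone (0.0508) and with no filter (0.0578). CDH1 (chromosome 16, 68771195 to 68869440) had 13 and 12 counts with control shRNA against 28 and 8 with USP47 shRNA, or 0.766, 0.612, 1.35 and 0.557 CPM. The knockdown libraries lay on either side of the controls (log2 fold change 0.56, SE 0.44, adjusted p = 0.414). Without USP47 shRNA replicate 1 the value was -0.28 (adjusted p = 0.770) and without USP47 shRNA replicate 2 it was 0.97 (adjusted p = 0.0631), so no direction could be given for E-cadherin at this depth.

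The polarity genes, which set the apical-basal axis of the cell, included a fall and a rise. PATJ, a scaffold of the Crumbs complex (chromosome 1, 62208149 to 62644347), had 1235 and 1381 counts with control shRNA against 1076 and 668 with USP47 shRNA, or 72.8, 70.4, 51.7 and 46.5 CPM. The groups did not overlap, with the control libraries close to each other, and the log2 fold change was -0.54 (SE 0.13, adjusted p = 0.0182). The adjusted p was 0.259 without control replicate 1 and 0.150 without control replicate 2. LLGL2, a basolateral polarity protein (chromosome 17, 73521161 to 73571290), had 264 and 270 counts with control shRNA against 388 and 415 with USP47 shRNA, or 15.6, 13.8, 18.7 and 28.9 CPM. Both knockdown libraries were above both controls, by unequal amounts (log2 fold change 0.69, SE 0.20, adjusted p = 0.0416). The LLGL2 call was lost without control replicate 1 (adjusted p = 0.0694), without control replicate 2 (0.174) and without USP47 shRNA replicate 2 (0.0513, log2 fold change 0.35), and with library size alone (0.0742) and no filter (0.0663).

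PARD6B, of the PAR complex, had 204 and 229 counts with control shRNA against 188 and 151 with USP47 shRNA (log2 fold change -0.28, adjusted p = 0.247). CRB3, the apical Crumbs protein, had 3, 8, 4 and 9 counts and was not tested.

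**Figure D4:**
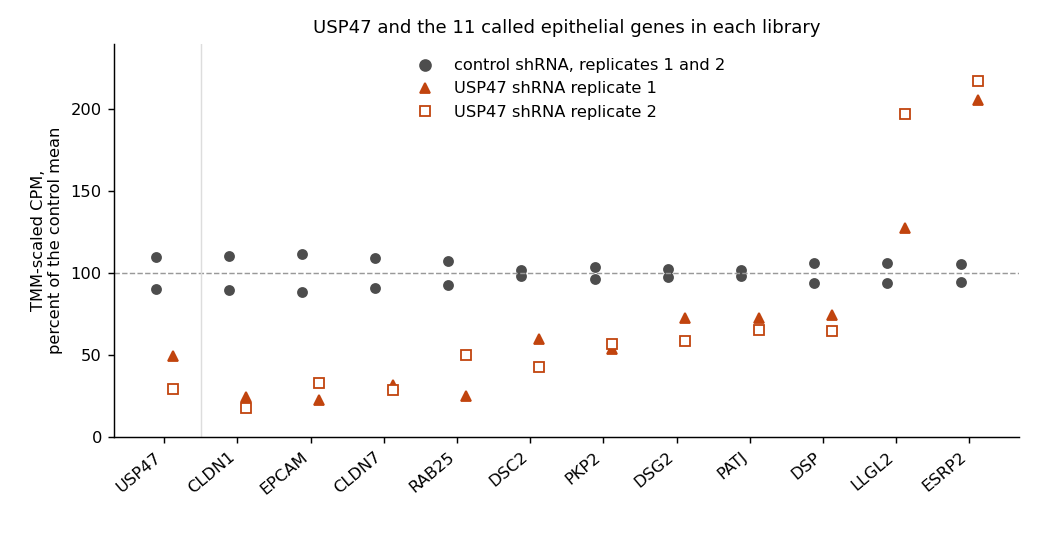
USP47 and the 11 called epithelial genes in each library, as TMM-scaled CPM in percent of the mean of the 2 control libraries (circles, control shRNA; triangles, USP47 shRNA replicate 1; open squares, USP47 shRNA replicate 2). CLDN7 lies at 31.8% and 28.5% and DSC2 at 59.8% and 42.3%, while ESRP2 lies at 206% and 217% and LLGL2 at 127% and 197%.

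ESRP2, which encodes an epithelial splicing regulator, was 1 of the 2 genes called higher. It had 96 and 99 counts with control shRNA against 229 and 167 with USP47 shRNA (chromosome 16, 68262936 to 68272005). The control libraries stood at 5.66 and 5.05 CPM and the knockdown libraries at 206% and 217% of their mean. Both knockdown libraries were at about the same level, above the controls, and the rise was 2.11-fold (log2 fold change 1.08, SE 0.17, adjusted p = 0.00330). Over the fits that left out 1 library it was 0.99 to 1.16. NFATC3 overlaps ESRP2 on the other strand, and whether any of its reads entered the ESRP2 counts is not known.

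The other regulators were low. GRHL1, a grainyhead factor, was the only other one expressed, with 74 and 91 counts with control shRNA against 66 and 60 with USP47 shRNA (log2 fold change -0.31, adjusted p = 0.338). ELF3, an epithelial ETS factor, was silent by the rule, with 9 and 3 counts against 13 and 15, and passed the filter through the knockdown libraries alone. Its log2 fold change was 1.27 (SE 0.55, adjusted p = 0.142), and without USP47 shRNA replicate 1 it was 1.66 (adjusted p = 0.0250). ESRP1, GRHL2, OVOL1, OVOL2 and EHF had at most 6 counts in any library.

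Of the keratins, KRT8 alone was expressed, at 10 and 19 counts with control shRNA against 10 and 10 with USP47 shRNA. Its groups overlapped (log2 fold change -0.46, adjusted p = 0.485). KRT7 had 4, 6, 1 and 10 counts and KRT80 had 2, 0, 7 and 4, and KRT18 and KRT19 stayed at 0 or 1. These keratins have many processed copies in the genome, and the 51 named KRT8 pseudogenes held 300, 330, 352 and 227 counts in the same order. The 67 named KRT18 pseudogenes held 330, 356, 433 and 240, and how reads were split between parents and copies is not known. KRT19, with 5 named pseudogenes, had 0, 2, 1 and 0 counts at these. KRT8 and KRT18 also overlap each other on opposite strands.

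Among proteases, inhibitors and apical proteins 4 of 6 were expressed and 1 was lower. This group is too small to be read against the 10.1% lower and 6.29% higher over all expressed genes. RAB25, a small GTPase of apical recycling endosomes (chromosome 1, 156030951 to 156040295), had 28 counts in each control library and 8 and 11 in the knockdown libraries, or 1.65, 1.43, 0.385 and 0.766 CPM. The groups did not overlap, and the fall was 2.79-fold (log2 fold change -1.48, SE 0.38, adjusted p = 0.0272). The adjusted p was 0.0968 without control replicate 1 and 0.0931 without USP47 shRNA replicate 1, where the log2 fold change was -0.98.

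MUC1 (chromosome 1, 155158300 to 155162707) was above both controls in both knockdown libraries but did not pass the test. This mucin, overlapped by an unnamed protein-coding gene on the same strand, had 258 and 291 counts with control shRNA and 470 and 244 with USP47 shRNA, or 15.2, 14.8, 22.6 and 17.0 CPM (log2 fold change 0.40, SE 0.17, adjusted p = 0.121). Without USP47 shRNA replicate 2 it was 0.59 (adjusted p = 0.000259). SPINT2, an inhibitor of membrane serine proteases, and PRSS8, the protease prostasin, had log2 fold changes of -0.46 and -0.28 (adjusted p = 0.277 and 0.582). The inhibitor SPINT1 and the protease ST14, matriptase, had at most 6 counts in any library.

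Of 9 repressors linked to EMT, listed by name, 7 were tested and 1, SNAI2, was called higher, a count near the background of 6.52% of all genes tested. SNAI2 is a zinc-finger repressor of CDH1, and it had 301 and 410 counts with control shRNA against 604 and 366 with USP47 shRNA, or 17.7, 20.9, 29.0 and 25.5 CPM. Its log2 fold change was 0.50 (SE 0.15, adjusted p = 0.0448), higher in both knockdown libraries. SNAI2 was no longer called with library size alone (adjusted p = 0.118), with no filter (0.0859), in the DESeq2 Wald test (0.0698), without control replicate 1 (0.489) and without control replicate 2 (0.152). SNAI1 had 199 and 309 counts against 266 and 263 (log2 fold change 0.17, adjusted p = 0.612). ZEB1 had 1796 and 1754 counts against 2100 and 977 (-0.21, adjusted p = 0.465), and without USP47 shRNA replicate 1 it was -0.51 (adjusted p = 0.000216). ZEB2, TWIST1, TCF3 and TCF4 had log2 fold changes of 0.07, 0.37, 0.16 and 0.24, and TWIST2 and KLF8 were too low to test. Without USP47 shRNA replicate 1, SNAI1 (0.42, adjusted p = 0.0241), TWIST1 (0.63, 3.97e-07) and TCF3 (0.31, 0.0203) passed the threshold, as did TCF4 without USP47 shRNA replicate 2 (0.33, 0.0194), so the calls for repressors depended on which knockdown library was kept. RNA counts do not measure the amount of these proteins. For HGC-27 cells the paper reports less Snai1 protein after USP47 knockdown, with its mRNA unaffected.

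A further 79 junction, keratin and epithelial genes outside the set were listed by name. Of these 44 were expressed and tested, 10 were lower and 2 were higher, and their median log2 fold change was -0.14. Over all expressed genes 10.1% were lower and 6.29% higher, and the groups by kind are too small to be read against these shares. By kind, the lower genes were 3 of 10 expressed adherens junction genes, 4 of 13 tight junction genes, 1 of 3 desmosomal genes and 2 of 7 epithelial identity genes, while none of 10 polarity genes was called. The only keratin of this list above 10 counts in any library was KRT10 (189, 292, 199 and 170 counts), and it was not called.

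CDH3, P-cadherin, had 26 and 32 counts with control shRNA against 6 and 9 with USP47 shRNA (log2 fold change -1.87, SE 0.40, adjusted p = 0.0126). PERP, a desmosomal membrane protein, had 409 and 449 counts against 241 and 227 (-0.79, SE 0.17, adjusted p = 0.0131), and without control replicate 1 its adjusted p was 0.0702. The receptor ERBB3 had 180 and 273 counts against 83 and 100 (-1.20, SE 0.25, adjusted p = 0.0116). In each of these genes both knockdown libraries were below both controls.

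The adhesion molecule NECTIN1 (log2 fold change -0.62), the junctional adhesion molecule JAM3 (-0.47), the claudins CLDN9 (-1.32) and CLDN5 (-1.30) and the sorting adaptor AP1M2 (-0.99) were also lower. Each of these 5 lost its call without control replicate 2, with an adjusted p of 0.170 for NECTIN1, 0.241 for JAM3, 0.0913 for CLDN9, 0.0943 for CLDN5 and 0.175 for AP1M2. Without control replicate 1 the calls of NECTIN1 (0.0865), JAM3 (0.335), CLDN5 (0.129) and AP1M2 (0.0557) were lost too, as was that of AP1M2 without USP47 shRNA replicate 1 (0.0726) and that of CLDN5 without USP47 shRNA replicate 2 (0.0816). In the DESeq2 Wald test JAM3 (adjusted p = 0.0554), CLDN9 (0.0808) and AP1M2 (0.159) were not called. CLDN5 lost its call with library size alone and with no filter. The other genes called lower, PLEKHA7 and CGNL1, had log2 fold changes of -0.80 and -1.05 (adjusted p = 0.0445 and 0.0473).

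The 2 higher genes were MPDZ and KLF5. MPDZ, a tight junction scaffold related to PATJ, had 56 and 30 counts with control shRNA against 153 and 143 with USP47 shRNA (log2 fold change 1.85, SE 0.30, adjusted p = 0.00404). Its level rose from 3.30 and 1.53 CPM to 7.36 and 9.96 CPM, opposite in direction to PATJ. KLF5, an epithelial transcription factor, had 671 and 788 counts against 1514 and 946 (log2 fold change 0.80, SE 0.13, adjusted p = 0.00361), and without control replicate 1 its adjusted p was 0.0560. Of the 6 mesenchymal markers, FN1, fibronectin, was lower (1240 and 1448 counts against 545 and 459, log2 fold change -1.34) and TAGLN, transgelin, was higher (71 and 93 against 155 and 122, log2 fold change 0.83, adjusted p = 0.0148), while VIM (-0.14) and SPARC (0.02) were not called.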

How the data were processed

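The data are RNA-Seq of HGC-27 cells in 4 libraries, grouped by the submitters' labels into control shRNA and USP47 shRNA, 2 each. The labels name a stranded library kit and the methods another one, and the methods speak of triplicates while the files hold 2 libraries per group. Per the methods, the authors trimmed bases of low quality, aligned to hg19 with STAR 2.7.5c and filtered out duplicates and poor reads with SAMtools 1.9. The submitters' processing notes also name featureCounts. The annotation and the strand setting are not given in the sources used here. Without molecular identifiers, removal of duplicates lowers high counts most. The authors deposited raw counts per gene beside FPKM and TPM values. The deposited FPKM values served only to recover each gene's length, and the deposited TPM values were not tested.

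Counts were compared with edgeR 4.0.16 in R 4.3.3 (TMM scaling, filterByExpr, robust quasi-likelihood fit, two-sided, Benjamini-Hochberg adjustment over the 21932 genes tested, threshold 0.05). A standard error was taken as the absolute log2 fold change over the root of F. CPM values use TMM-scaled library sizes, and the floor of 3 counts per library covers counting error only. Total counts were 16302068 and 19529469 with control shRNA and 20140273 and 15649899 with USP47 shRNA, and genes under 10 counts have little precision. Of 63568 identifiers 55665 matched a symbol in a reference list of gene names. Gene positions and overlaps came from the GENCODE annotation lifted to GRCh37. The script was tested on simulated data. Alternatives covered scaling, filter, a minimum log2 fold change, the Wald test of DESeq2 1.42.0, a replicate block and each library left out.

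The members and lists were chosen with earlier results of these data known. Named genes are USP47, members with an adjusted p under 0.05, the 10 members of highest control level, CDH1, EPCAM and the claudins, the repressors, and up to 10 called genes of the further junction list by smallest p. PLEKHA7, CGNL1, DSC1, KRT10 and further members given with values were named after their values were seen, and leaving out genes that passed the filter through the control libraries alone was also chosen then. CLDN18 is in both the gastric and the junction list. One gene of the immune marker list is not reported here.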

Additional observations from a re-analysis of the deposited data

How the results depend on the processing

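No result changed direction with a call under any alternative, and the median log2 fold change of the expressed genes kept its sign. The 11 calls among the epithelial genes (9 lower, 2 higher) became 12 with DESeq2 size factors and with a filter of 10 counts in both control libraries, where PPL was gained, 8 with library size alone (1 higher) and 8 with no filter (1 higher). Against a minimum log2 fold change of 1, edgeR called 0 of them (0 lower, 0 higher) and 71 of all genes (50 lower, 21 higher), while 4 (CLDN1, CLDN7, EPCAM and RAB25) had an unadjusted p under 0.05 in that test. The DESeq2 Wald test called 7 (5 lower), losing PKP2 and giving CLDN1, EPCAM and RAB25 no adjusted p, and 2288 of all genes (1174 lower), against 3527 (2097 lower, 1430 higher) in edgeR. With library size alone 1920 of all genes were lower and 881 higher. Leaving out 1 library gave 4 to 14 calls in the set (3 to 11 lower, 1 to 4 higher), 1233 to 7272 over all genes (909 to 3576 lower, 324 to 3773 higher) and a median of the expressed genes of -0.39 to -0.17. The replicate numbers are shared between groups, but no source says that a number marks a batch or day, and with 2 pairs the deviations correlated at 0.213. With the replicate block 15 epithelial genes were called (5 higher) and 7419 of all genes (3890 lower, 3529 higher), with ELF3, MUC1, OCLN and PPL gained and no call lost. Apart from settings whose construction shows it (fewer libraries, a stricter null), the cause of these shifts was not tested. Depth limits the silent genes and CDH1, EPCAM, CLDN1, CLDN3, RAB25, KRT8, JUP and PRSS8, which rest on under 30 counts a library. Of these, EPCAM, CLDN1 and RAB25 were called lower.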
